A study of Rattus norvegicus with 9 samples.

Results

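The intercalated cell is the acid- and base-secreting cell of the kidney's connecting tubule and collecting duct. The genes described here are 10 named for its acid-base transport: 4 subunits of the proton pump (Atp6v1b1, Atp6v1g3, Atp6v0d2 and Atp6v0a4), 3 anion exchangers (Slc4a1, Slc26a4 and Slc4a9), the transcription factor Foxi1 and 2 ammonia channels (Rhcg and Rhbg). They were matched by name to a table of 18420 genes, and 9 of the 10 were found. Slc26a4 is not analysed here. Messenger RNA came from the kidney cortex of ZDF fa/fa rats, diabetic animals that are obese because both copies of the leptin receptor gene are defective. All 9 libraries carry the label Medical Bypass and form 1 group of 9 replicates, so there is no contrast between treatments and the values below describe levels and their spread within that group. No drug, dose, time, age or sex is given in the sources used here, nor whether each replicate is a separate animal. Each p-value therefore reflects the scatter of these samples alone, and that scatter may be technical.

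Intercalated cells pump protons with a vacuolar-type ATPase, a rotary machine whose V1 sector splits ATP in the cytosol and whose V0 sector carries protons through the membrane. Type A cells put the pump on the urine side and return bicarbonate to the blood through the anion exchanger Slc4a1, whereas type B cells put the pump on the blood side. Ammonia enters the cell from the blood side, where Rhbg lies, and leaves through Rhcg on the urine side, carrying acid into the urine, and Foxi1 is the forkhead factor that these cells need in order to form.

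Reads in genes ranged from 10757440 in replicate 3 to 43071223 in replicate 8. Replicate 1 stood apart in the balance of tubule segments. The summed level of 7 principal cell genes, which mark the neighbouring salt- and water-handling cell of the collecting duct, was 29498 there and 13038 to 17990.0 in the other 8 libraries, and 6 of the 7 were highest in it. The sum of 5 distal convoluted and connecting tubule genes was 44746 there and 20474 to 38001 elsewhere, and that of 8 proximal tubule genes was 126896 there and 153233 to 258575 elsewhere, with 7 of the 8 lowest in replicate 1. Slc34a1, the phosphate transporter of the cortical proximal tubule, had a level of at least 52253 in every library. The sum of 3 thick ascending limb genes was also highest in replicate 1, at 106067 against 57383 to 86275, with 1 of the 3 highest there. That gene, for the secreted protein Umod, was at 84097 there and at most 66296 elsewhere. Slc12a1 was at 20016 in replicate 1 and higher in replicate 2, at 21695. Cldn10 was at 1954 in replicate 1, near its median of 1926. The sum of 3 genes of the medulla, the deeper zone, was 844 in replicate 1 and 460 to 802 in the others. Most of that sum was Akr1b1, at 812 in replicate 1 and 776 in replicate 5. Slc6a12 stayed at or below 17.6, with replicate 5 highest, and the urothelial membrane protein Upk1b at or below 20.6. In bulk tissue a larger number of cells of a type and more RNA per cell cannot be told apart. For relations between genes, values without replicate 1 are given beside those with it.

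All 9 genes were well measured. A level here is the number of reads of a gene over the size factor of its library, with no correction for gene length, so levels are compared between replicates and not between genes. The smallest read count behind any of them was 333, for Rhbg in replicate 3. Counting error was 0.785% to 2.87% of the level, against a coefficient of variation between replicates of 9.49% to 40.4%. The spread between replicates was therefore larger than counting error for each gene.

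The pump's kidney subunits differed in how much they varied. Atp6v1b1, the kidney form of the V1 sector's B subunit and a gene of inherited distal renal tubular acidosis, had levels of 7366, 3612, 4600.3, 4276, 5289, 4351, 5284, 5312 and 4266 in replicates 1 to 9, a mean of 4928 ± 1083 (SD, n = 9). Replicate 1 was 1.39 times the next highest library, replicate 8, and the other 8 libraries covered a 1.47-fold range. Atp6v1g3, the kidney form of the G subunit in the pump's outer stalk, had levels of 7078, 2968, 8080, 4325, 5728, 3989.5, 5429, 5745 and 6184, a mean of 5503 ± 1573 (SD, n = 9). Its highest library was replicate 3 and its lowest replicate 2, a 2.72-fold range. Atp6v0d2, the kidney form of the V0 sector's d subunit that couples the rotor to the stalk, had levels of 3234, 1667, 2855, 1995, 2293, 2035, 2388, 2325 and 2441, a mean of 2359 ± 466.5 (SD, n = 9). Replicates 1 and 3 were its 2 highest and replicate 2 again its lowest.

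Atp6v0a4, the kidney a subunit through which protons cross the membrane and the other pump gene of inherited distal renal tubular acidosis, stood out by its evenness. Its levels were 15566, 17398, 17039.5, 13934, 13797, 16849, 17195, 16527 and 14117, a mean of 15825 ± 1502 (SD, n = 9) and a 1.26-fold range. Replicates 4, 5 and 9 were low, the other 6 libraries lay between 15566 and 17398, and replicate 1 was the lowest of those 6. Its level in replicate 1 was 0.982 times the mean of the other 8 libraries, against 1.59 times for Atp6v1b1, 1.33 times for Atp6v1g3 and 1.44 times for Atp6v0d2.

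**Figure D1:**
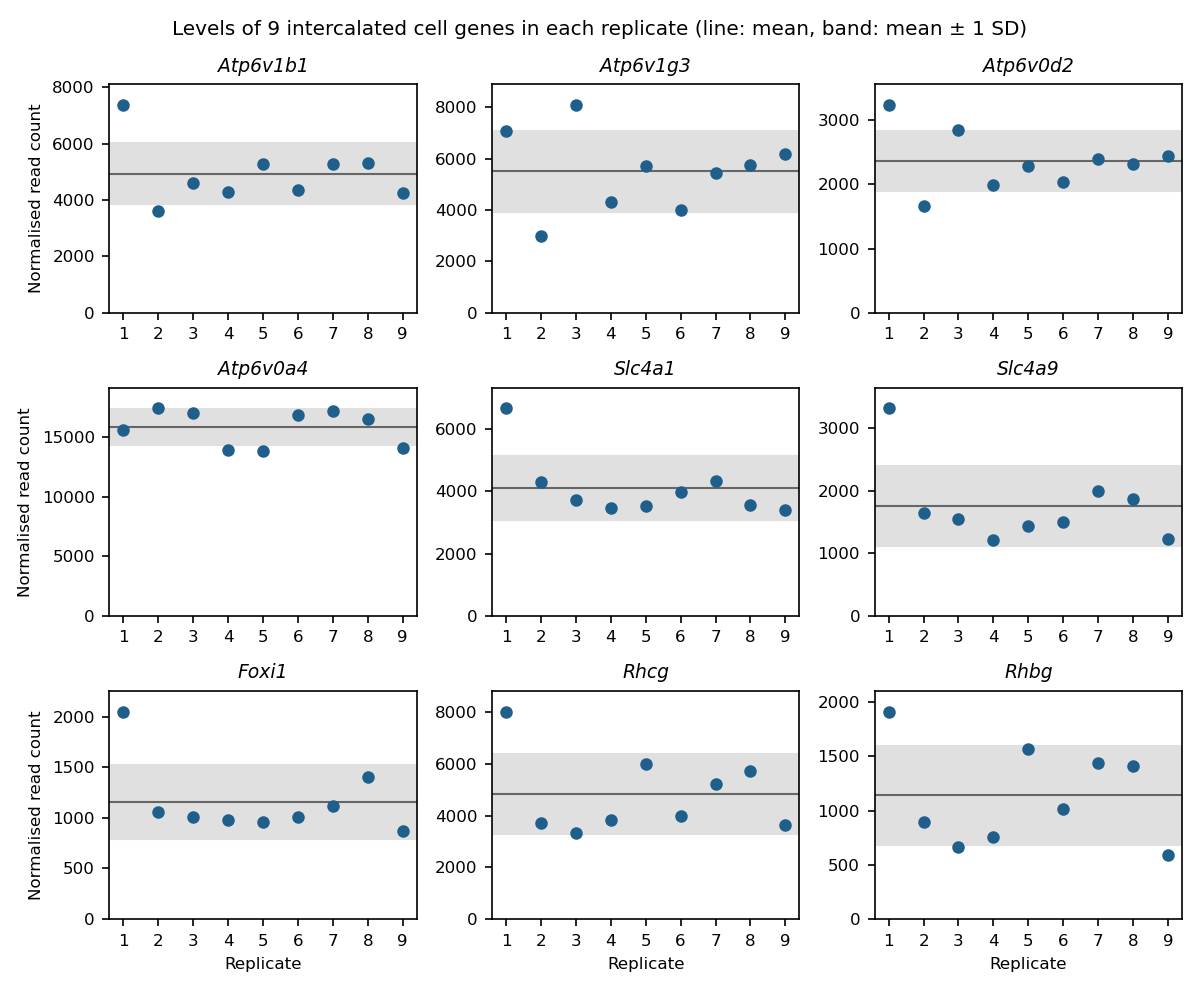
Level of each of 9 intercalated cell genes (y axis, normalised read count, starting at 0) in replicates 1 to 9 (x axis). Each point is 1 library, the line the mean and the band the mean ± 1 SD over 9 replicates. Replicate 1 holds the highest point for 7 of the 9 genes, the others being Atp6v1g3 (replicate 3) and Atp6v0a4 (replicate 2).

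The anion exchangers shared a single high library. Slc4a1, the chloride-bicarbonate exchanger of the type A cell's blood side, had levels of 6670, 4312, 3726, 3475, 3538, 3987, 4341, 3566 and 3388, a mean of 4111 ± 1022 (SD, n = 9). Without replicate 1 the mean was 3792 ± 377 (SD, n = 8) and the range 1.28-fold, down from 1.97-fold. Slc4a9, a bicarbonate transporter on the blood side of the type B cell, had levels of 3319, 1642, 1557, 1216, 1442, 1505, 1999, 1870.4 and 1234, a mean of 1754 ± 642 (SD, n = 9). Replicate 1 was 2.13 times the mean of the other 8 libraries, the largest such ratio among the 9 genes. Slc4a1 is also the band 3 protein of red blood cells, and red cell markers went both ways in replicate 1. Hba-a2, an alpha globin, had a level of 12583 in replicate 1 and ran from 2920.3 in replicate 6 to 26196 in replicate 5. Alas2, the heme synthesis enzyme of red cell precursors, ran from 60.2 to 361 and Rhag, the red cell's own Rh glycoprotein, from 0 to 0.732. Klf1, the red cell transcription factor, was highest in replicate 1 (17.5, against at most 12.0 elsewhere). The sum of 8 red blood cell genes was 13047 in replicate 1 and 3804 to 26879 in the others, with 1 of the 8 highest and 2 lowest in replicate 1. The part of blood in the level of Slc4a1 was not tested.

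The log2 ratio of Slc4a1 to Slc4a9, a type A to a type B transporter, was 1.01, 1.39, 1.26, 1.52, 1.29, 1.41, 1.12, 0.93 and 1.46 in replicates 1 to 9. This ratio spanned 1.499-fold, while Slc4a9 alone spanned 2.73-fold. Replicate 1, the highest for both genes, had the second lowest ratio, and replicate 8 the lowest. Without lengths the sign and size of such a ratio carry no meaning, and only its change between libraries is read here.

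Foxi1, the forkhead factor of intercalated cells, had levels of 2049, 1053, 1007, 983, 955, 1005, 1122, 1402 and 873, a mean of 1161 ± 365 (SD, n = 9). Replicate 1 was 1.95 times the mean of the other libraries and replicate 8 the second highest, and the other 7 lay between 873 and 1122.

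The ammonia channels varied more than the exchangers once replicate 1 was set aside. Rhcg, on the urine side of the cell, had levels of 8010.5, 3723, 3332, 3809, 6004, 3983, 5201, 5726 and 3651, a mean of 4827 ± 1543 (SD, n = 9). Rhbg, on the blood side, had levels of 1912, 899, 663, 757, 1570.2, 1012, 1436, 1413 and 592, a mean of 1139 ± 460 (SD, n = 9). For both genes replicates 1, 5, 7 and 8 were the 4 highest libraries. How many other genes share these 4 was not counted. Without replicate 1 Rhbg still covered a 2.65-fold and Rhcg a 1.80-fold range, against 1.28-fold for Slc4a1 and 1.64-fold for Slc4a9. The log2 ratio of Rhcg to Rhbg was 2.07, 2.05, 2.33, 2.33, 1.93, 1.98, 1.86, 2.02 and 2.62, a 1.70-fold range with replicate 9 the highest.

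Replicate 1 was thus the highest library for 7 of the 9 genes, while it was the highest for 14.2% of the 13647 genes that were tested because their mean was 10 or more. It exceeded 1.5 times the mean of the other libraries for Atp6v1b1, Slc4a1, Slc4a9, Foxi1, Rhcg and Rhbg, and 9.24% of all tested genes did so. The summed level of the 9 genes was 55205 in replicate 1 and 34769 to 44394 in the others. The sum of 24 other intercalated cell genes was also highest there, at 52238 against 35427 to 45763, although 8 of the 24 were highest and 3 lowest in that library. The principal cell, distal and thick ascending limb sums given above were also highest in replicate 1, and the proximal tubule sum was lowest there. Their part in these levels was not tested. Replicate 4 held none of the 3 highest values of any of the 9 genes and was among the 3 lowest for 8 of them, and replicate 9 was among the 3 lowest for 7.

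Variance between replicates was then compared with the variance of all genes at a similar level, with limma on log2(level + 1). No gene passed an adjusted p of 0.05 among 13647 (0.0%), and 573 (4.2%) had an unadjusted p under 0.05. Rhbg was the only 1 of the 9 genes among the latter: its variance was 5.55 times the trend, which put it at the 96.1th percentile of tested genes, with a limma adjusted p of 0.957. Its unadjusted p, 0.0467, was over 0.05 without replicate 1 (0.0771), 4 (0.0542) or 9 (0.0609) and among genes with a mean of at least 100 (0.0517). The ratio to the trend was 3.09 for Slc4a9, 2.903 for Atp6v1g3, 2.72 for Rhcg and 2.21 for Foxi1. Atp6v0a4 lay at the other end with a ratio of 0.258, at the 5.89th percentile. Without replicate 1 the ratio fell below 1 for Foxi1 (0.668), Slc4a1 (0.337), Atp6v1b1 (0.665) and Atp6v0d2 (0.927), and it was 4.71 for Rhbg, 3.33 for Atp6v1g3 and 1.83 for Rhcg, and Slc4a9 moved from percentile 87.3 to percentile 49.1.

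Pairs of the 9 genes went up and down together in part. Over the 36 pairs, the median Pearson correlation of log2 levels across the 9 replicates was 0.58, and single pairs ran from -0.18 to 0.94. A correlation above 0.5 was found in 20 of 36 pairs (55.6%), while 16.0% of 122742 pairs of one of these genes with any other tested gene had one. Without replicate 1 the median was 0.26, and 14 of 36 pairs (38.9%) were above 0.5 against 18.0% of the other pairs. All pairs share the same libraries and size factors, so they are not independent of each other.

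**Figure D2:**
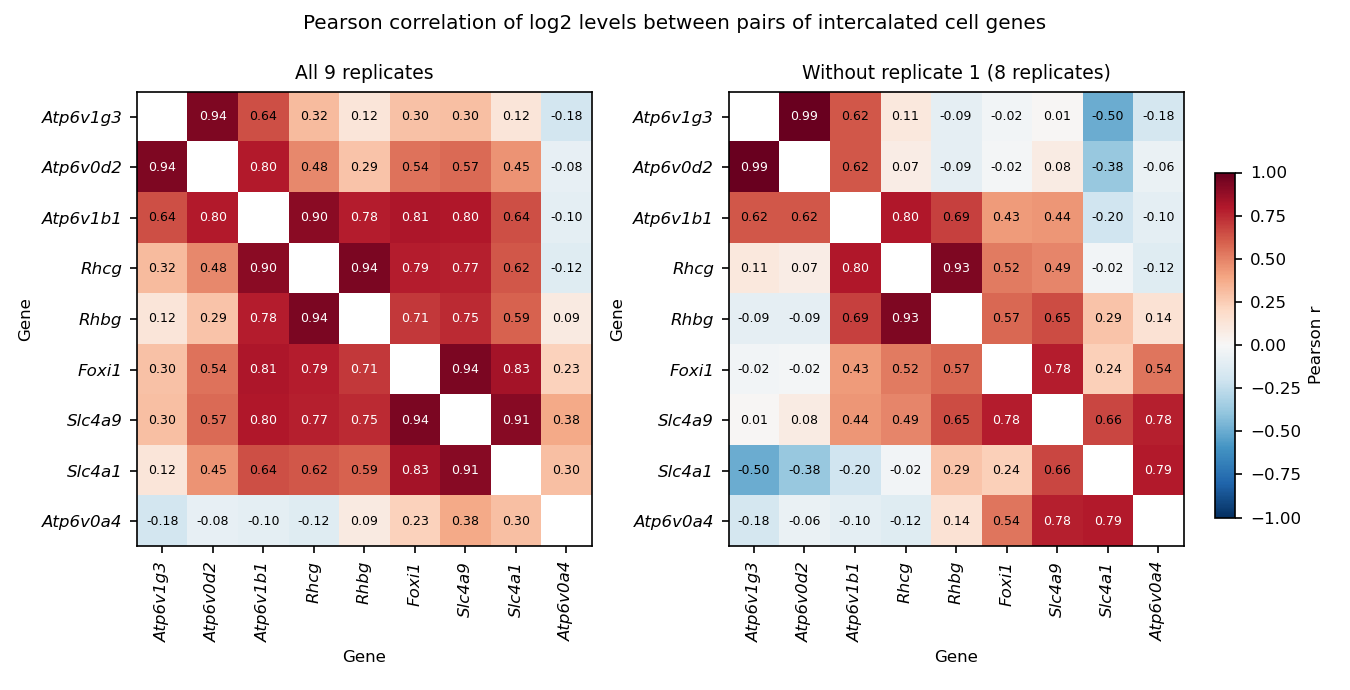
Pearson correlation of log2 levels between pairs of 9 intercalated cell genes, over all 9 replicates (left) and over 8 replicates without replicate 1 (right). Rows and columns are genes in the same order, and the colour scale runs from -1 to 1. The pairs Atp6v1g3 with Atp6v0d2 and Rhcg with Rhbg stay at 0.93 or above in both panels, while Slc4a1 turns from positive to negative with Atp6v1g3, Atp6v0d2, Atp6v1b1 and Rhcg.

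Some pairs kept a close relation without replicate 1. Permutation p-values for this pair and for Rhcg with Rhbg are not adjusted for the 36 pairs, of which these are among the highest. The first was Atp6v1g3 and Atp6v0d2, a stalk and a rotor subunit of the pump. This pair had a Pearson r of 0.937 and a Spearman rho of 0.917 (two-sided exact permutation p = 0.000317 and 0.00131, n = 9). Its r was 0.986 without replicate 1 and 0.883 without replicates 2 and 6, the 2 libraries farthest from the median of Atp6v1g3. Among 13646 genes ranked by r with Atp6v1g3, Atp6v0d2 was at rank 4, and at rank 1 without replicate 1. In the limma slope on Atp6v1g3 it had an adjusted p of 0.998 over all genes, and 0.0% of 13646 genes were called. The log2 ratio of the 2 subunits stayed within 0.83 to 1.501, and the low library 2 and the high library 3 were also the ends of that ratio.

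Rhcg and Rhbg, the ammonia channels of opposite sides of the cell, had an r of 0.940 and a rho of 0.95 (two-sided exact permutation p = 0.000141 and 0.000353, n = 9). Without replicates 1 and 5, the 2 farthest from the median of Rhcg, r was 0.913. In the limma slope of all genes on the z-scored level of Rhcg, 3968 of 13646 genes were called (29.1%), of which 14.4% of all genes were higher with it. Against that background 4 of the other 8 genes were called, all higher: Rhbg with a log2 slope of 0.56 ± 0.07 (SE, limma adjusted p = 0.00463), Atp6v1b1 with 0.26 ± 0.06 (limma adjusted p = 0.013), Slc4a9 with 0.34 ± 0.09 (limma adjusted p = 0.0212) and Foxi1 with 0.30 ± 0.08 (limma adjusted p = 0.0218). Without replicate 1 the slope on Rhcg called 6318 genes (46.3%), and Rhbg and Atp6v1b1 remained called while Slc4a9 and Foxi1 did not. With Rhbg as the variable, 4565 genes (33.5%) and 4 of the 8 were called, and without replicate 1 it was 5000 genes (36.6%) and Rhcg alone. At an unadjusted p under 0.05 the slope on Rhcg had 5 of the 8 against 43.7% of all genes, and that on Rhbg 4 of the 8 against 45.7%. Atp6v1b1 and Rhcg had an r of 0.901, and of 0.799 without replicate 1.

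The exchangers and Foxi1 formed another close set with all libraries. Slc4a9 and Foxi1 had an r of 0.940 and a rho of 0.933 (two-sided exact permutation p = 0.000816 and 0.00075, n = 9, adjusted p = 0.4999 and 0.887 over 13646 genes), and Slc4a9 was at rank 3 of those genes. Without replicate 1 r was 0.784 at rank 72, and without replicates 1 and 8, the 2 farthest from the median of Foxi1, it was 0.868. Slc4a1 and Foxi1 had an r of 0.831 and a rho of 0.800 (two-sided exact permutation p = 0.0323 and 0.0138, n = 9, adjusted p = 0.545 and 0.887). For that pair r was 0.239 without replicate 1 and 0.884 without replicates 1 and 8, so it rested on which of those libraries were kept. Slc4a1 and Slc4a9 had an r of 0.913, which was 0.664 without replicate 1.

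Atp6v0a4, the even pump subunit, behaved otherwise. Its r with the other 3 pump subunits lay between -0.18 and -0.08, and with replicate 1 left out these values were -0.18 to -0.06. Its r with Slc4a1 was 0.300 over 9 replicates and 0.793 over the 8 without replicate 1, and with Slc4a9 it was 0.381 and 0.777. The slope of all genes on Atp6v0a4 called 1 of 13646 (0.00733%), Prima1, the membrane anchor of acetylcholinesterase, with a log2 slope of 0.92 ± 0.09 (SE, limma adjusted p = 0.00552). Prima1 ran from 354 to 2107 in level with an r of 0.970, and it was called again with each replicate left out in turn (limma adjusted p 0.00497 to 0.0337). No other gene of the 9 was called with Atp6v0a4.

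With Atp6v1b1, Atp6v1g3, Atp6v0d2, Slc4a1 or Slc4a9 as the variable, limma called none of the remaining 8 and none of 13646 genes (0.0%). At an unadjusted p under 0.05 the slope on Atp6v1b1 had 7 of the 8 genes against 23.9% of all genes, that on Slc4a1 5 of 8 against 8.0% and that on Slc4a9 5 of 8 against 9.37%. The slope on Atp6v1g3 had 1 of 8 against 3.06% and that on Atp6v0d2 2 of 8 against 2.68%. For Atp6v0a4 it was 0 of 8 against 1.59%. For these unadjusted counts, leaving out replicate 1 gave 3 of 8 for Atp6v1b1, near the share over all genes (5074 of 13646). It gave 0 of 8 for Slc4a1 (247 of all genes), 1 of 8 for Slc4a9 (370), 1 of 8 for Atp6v1g3 (834) and 1 of 8 for Atp6v0d2 (664). The count for Slc4a1 was 2 of 8, against 854 to 1147 of 13646 genes, when replicate 3, 4, 6, 7 or 9 was left out. Leaving out replicate 3 gave 3 of 8 for Atp6v1g3 (954 of all genes) and 5 of 8 for Atp6v0d2 (722). Leaving out replicate 9 gave 2 of 8 for Atp6v1g3 (546). Without replicate 1 the slope on Atp6v1b1 called 1407 genes (10.3%) and none of the other 8 genes, with Rhcg at a limma adjusted p of 0.0525.

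Slopes on Foxi1 asked which genes varied with the factor of this cell type. None of the other 8 was called and neither was any of 13646 genes (0.0%), with limma and with edgeR on the recovered reads. At an unadjusted p under 0.05 there were 5 of 8 (Slc4a9, Rhbg, Rhcg, Slc4a1 and Atp6v1b1) against 9.13% of all genes. Without replicate 1 there was 1 of 8, Slc4a9, against 312 of 13646 genes. The log2 slope per SD of Foxi1 was 0.41 ± 0.07 for Slc4a9, 0.42 ± 0.14 for Rhbg, 0.34 ± 0.10 for Rhcg, 0.25 ± 0.07 for Slc4a1 and 0.24 ± 0.07 for Atp6v1b1 (SE, limma adjusted p = 0.527 for each). With replicate 1 left out they were 0.20 ± 0.08 for Slc4a9, 0.31 ± 0.15 for Rhbg, 0.17 ± 0.11 for Rhcg, 0.03 ± 0.07 for Slc4a1 and 0.08 ± 0.08 for Atp6v1b1 (SE, limma adjusted p 0.761 to 0.873). The median slope of the 8 genes was 0.24, and that of all tested genes 0.00. Other genes of the cell type did not form a called group with Foxi1 either: of 22 tested other intercalated cell genes 0 were called and 7 had an unadjusted p under 0.05, with a median slope of 0.03. Of the 22 slopes 13 were above 0, and 50.1% of all tested genes had an r above 0 with Foxi1. Hepacam2, an adhesion protein of these cells, had a level of 1527 in replicate 1 and 660 to 1043 elsewhere, while the nuclear receptor coactivator Ncoa7 had 873 there and up to 3091 elsewhere (log2 slope -0.41 ± 0.17, SE, limma adjusted p = 0.529). Slc4a8, a sodium-driven bicarbonate exchanger, was lowest in replicate 1 at 8.23, against 12.4 to 28.7. Car2, the cytosolic carbonic anhydrase, was even, at 8273 to 10070.0, and Atp4a and Spink8 were at or below 5.2 in every library. Of 17 V-ATPase subunits listed as shared with other cell types, 0 were called and 3 had an unadjusted p under 0.05. Atp6v1c2, in that list although it is the C subunit of kidney and lung, was among these 3. Its level was 1270.0 in replicate 1 and 450.4 to 821 elsewhere, and it was at rank 2 by r with Foxi1 among the genes outside the set (0.940). Cdh3, a cadherin, was at rank 1 (0.955) and Zfp282, a zinc finger protein, at rank 3 (0.937). Without replicate 1, Cdh3 was at rank 29, Atp6v1c2 at rank 44 and Zfp282 at rank 51. For Slc4a1 the 3 genes outside the set most like it over the 9 replicates were AABR07039229.2 (r = 0.969), ENSRNOG00000018607 (0.959) and Sgsm1 (0.95), and without replicate 1 they were at ranks 36, 101 and 39.

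The promoters of 7 of the 9 genes were matched by symbol in the RefSeq table of build GRCr8, and Atp6v0d2 and Slc4a1 had no entry there. The 250 bases before the start of each gene were searched on both strands for TGTTTA and TGTTTG, core letters that forkhead factors such as Foxi1 can bind. The words can overlap each other, and no matches in these promoters did. At least 1 was found in 3 of the 7 promoters (42.9%), against 25.2% of 33469 rat promoters of the same length. The 2 pump subunits that hold TGTTTA and the 2 ammonia channels that hold neither word are printed because they contrast in motif, while Atp6v1b1 and Rhcg varied together as given above. Capitals mark the matches, and CAAACA is TGTTTG read on the opposite strand. Atp6v1b1 is at chr4:117781194-117781443 on the plus strand, Atp6v1g3 at chr13:52362082-52362331 on the plus strand, Rhcg at chr1:142965163-142965412 on the minus strand and Rhbg at chr2:176015150-176015399 on the minus strand.
Atp6v1b1: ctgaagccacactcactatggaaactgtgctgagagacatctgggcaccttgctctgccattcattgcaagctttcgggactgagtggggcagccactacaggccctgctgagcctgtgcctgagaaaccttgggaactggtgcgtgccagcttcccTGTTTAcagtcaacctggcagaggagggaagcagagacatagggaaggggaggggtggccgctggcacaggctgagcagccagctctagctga
Atp6v1g3: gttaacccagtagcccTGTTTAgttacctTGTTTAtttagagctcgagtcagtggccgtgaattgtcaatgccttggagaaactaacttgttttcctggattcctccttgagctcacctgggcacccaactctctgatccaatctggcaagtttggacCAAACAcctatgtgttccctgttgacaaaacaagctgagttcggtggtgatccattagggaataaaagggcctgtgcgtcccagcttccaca
Rhcg: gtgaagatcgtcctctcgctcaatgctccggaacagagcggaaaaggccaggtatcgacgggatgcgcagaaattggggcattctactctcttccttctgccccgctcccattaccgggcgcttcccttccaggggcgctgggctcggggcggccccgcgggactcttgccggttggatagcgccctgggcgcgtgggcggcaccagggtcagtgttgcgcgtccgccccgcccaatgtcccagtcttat
Rhbg: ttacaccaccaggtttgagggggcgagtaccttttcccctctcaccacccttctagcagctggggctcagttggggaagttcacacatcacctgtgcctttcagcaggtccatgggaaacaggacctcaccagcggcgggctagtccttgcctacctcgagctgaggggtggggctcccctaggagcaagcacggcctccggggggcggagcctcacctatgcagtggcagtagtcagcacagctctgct
The match in Atp6v1b1 starts 93 bases before the gene's start. Those in Atp6v1g3 start 234 and 221 bases before it on the gene's strand and 92 bases before it on the opposite strand. Slc4a9, whose r with Foxi1 is given above, held TGTTTG at 2 positions, and Foxi1 itself and Atp6v0a4 held neither word. A match is a description of letters and not of a bound site. GC content was 65.2% in the Rhcg and 61.6% in the Rhbg sequence, 58.4% in that of Atp6v1b1 and 47.6% in that of Atp6v1g3.

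The kidney subunits were next set against their widely expressed partners within each library. The log2 ratio of Atp6v1b1 to Atp6v1b2, the B subunit of most other cells, was 0.55 in replicate 1 and -1.06 to -0.56 in the other 8. Its range was 3.05-fold with all libraries and 1.41-fold without replicate 1, because Atp6v1b2 was at its lowest in replicate 1 (5038, against a median of 8126) while Atp6v1b1 was at its highest. The log2 ratio of Atp6v1g3 to Atp6v1g1 was also highest in replicate 1 at 0.05, with -1.19 in replicate 2 as the lowest. That of Atp6v0d2 to Atp6v0d1 was highest in replicate 3 at -1.28, with replicate 1 next at -1.39 and replicate 5 lowest at -2.32. That of Atp6v0a4 to Atp6v0a1 stayed between 2.89 and 3.46, a 1.49-fold range in which replicate 1 lay at 3.05 near the median of 3.06.

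**Figure D3:**
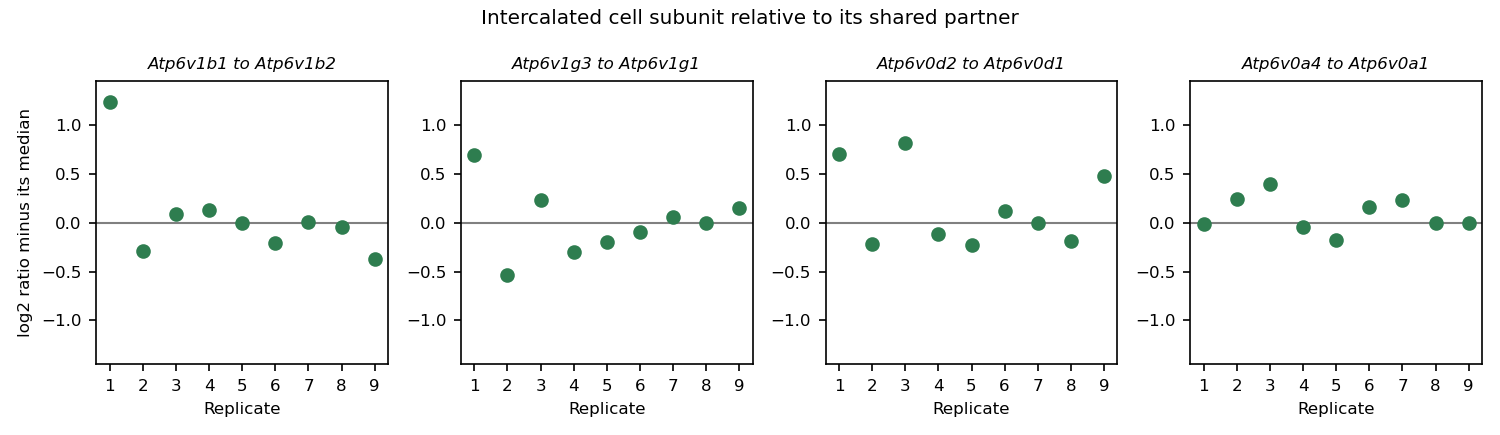
Log2 ratio of 4 kidney pump subunits to their widely expressed partners (y axis, log2 units, minus the median of each ratio) in replicates 1 to 9 (x axis). Each point is 1 library. Replicate 1 lies far above the others for Atp6v1b1 to Atp6v1b2 and close to the median for Atp6v0a4 to Atp6v0a1.

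Cell type scores, each the mean z-score of a marker list and itself z-scored over the libraries, were used as variables in the same way. On the principal cell score 0 of the 9 genes and 1 of 13640 (0.00733%) were called, and 7 of the 9 had an unadjusted p under 0.05 against 9.82% of all genes. Without replicate 1 none of the 9 had one, against 1123 of 13640 genes. Hsd11b2, the principal cell enzyme that inactivates corticosterone, was at 15356 in replicate 1 and 4631 to 8803 elsewhere, and Aqp3, its water channel, at 3674 and 1899 to 2834. On the proximal tubule score 0 of the 9 genes and 0 of 13639 genes (0.0%) were called, and 2 of the 9 (Slc4a1 and Foxi1) had an unadjusted p under 0.05 against 5.33%. That count was 0 of 9 without replicate 1 (567 of 13639 genes) and 4 of 9 with edgeR (755 of 13639). It was 6 of 9 when all libraries were brought to equal totals (824 of 13869). The median r of the 9 genes with the score was -0.58 with replicate 1 and 0.44 without it. On the red blood cell score 0 of the 9 genes and 0 of 13640 (0.0%) were called, and none of the 9 against 1.36% had an unadjusted p under 0.05. Slc4a1 had an r of 0.183 with that score (rho -0.133; two-sided exact permutation p = 0.624 and 0.744, n = 9, adjusted p = 1.00 and 0.982), and -0.242 without replicate 1. On library size 0 of the 9 genes were called (0.0% of 13647) and none had an unadjusted p under 0.05 (13.4%).

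Reads aligned to more than 1 place, a property of the library and not of a gene, made up 19.2%, 14.9%, 15.5%, 17.2%, 22.1%, 15.2%, 16.8%, 18.4% and 15.8% of counted reads in replicates 1 to 9. On this share 4774 of 13647 genes were called (35.0%), and 16.3% of all genes were called and higher with it. Of the 9 genes 2 were called, both higher: Rhcg with a log2 slope of 0.33 ± 0.09 per SD of the share (SE, limma adjusted p = 0.0143) and Rhbg with 0.42 ± 0.13 (limma adjusted p = 0.0233). That count, 2 of 9, lies near the background share, and so does the 3 of 9 with an unadjusted p under 0.05 against 46.4% of all genes. The 4 libraries in which both channels were highest, 1, 5, 7 and 8, had 16.8% to 22.1% of such reads. The other 5 had 14.9% to 17.2%, and since the 4 were picked by these levels the split is not a further test. For Rhcg r with the share was 0.776 and rho 0.767 (two-sided exact permutation p = 0.0115 and 0.0214, n = 9, adjusted p = 0.0429 and 0.0807), and r was 0.759 without replicates 5 and 1 and 0.809 without replicate 1. For Rhbg r was 0.700 and rho 0.633 (two-sided exact permutation p = 0.0311 and 0.0760, n = 9, adjusted p = 0.0821 and 0.168), and 0.516 without replicates 5 and 1. Without replicate 1 the limma fit called Rhcg (adjusted p = 0.0184) and not Rhbg (adjusted p = 0.0505). Slc4a1 had an r of 0.119 with the share, and -0.421 without replicate 1.

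**Figure D4:**
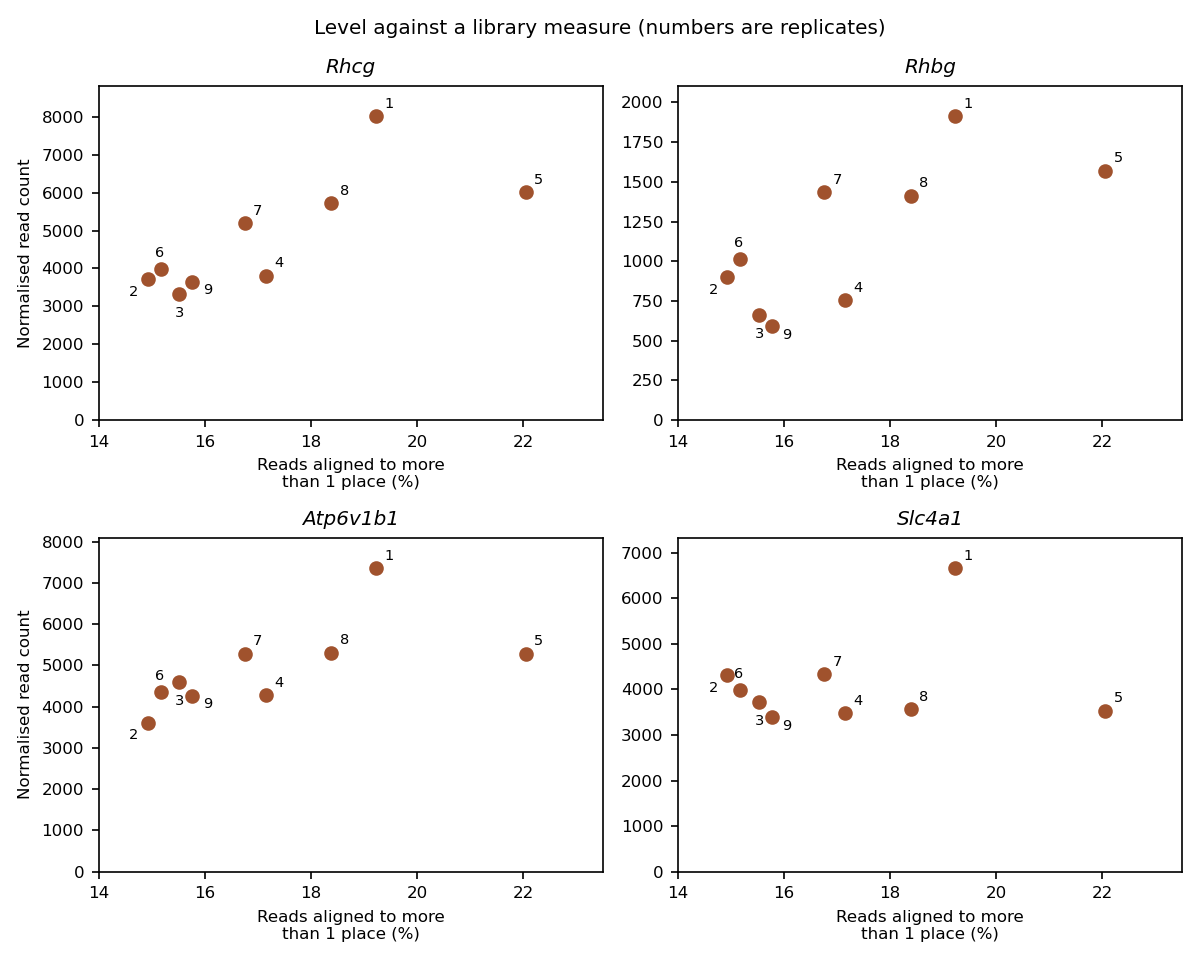
Level of Rhcg, Rhbg, Atp6v1b1 and Slc4a1 (y axis, normalised read count, starting at 0) against the share of counted reads that aligned to more than 1 place (x axis, percent). Each point is 1 library, numbered by replicate. Rhcg and Rhbg are highest in replicates 1, 5, 7 and 8, and Slc4a1 has a single high point, replicate 1, at 19.2%.

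Outside the set, the 10 tested genes whose levels were most like the mean z-score of the 9 genes, by r across the 9 replicates, were Tmem163 (0.972), Slc4a11 (0.955), Pde1b (0.951), Kcne1 (0.948), Cand2 (0.944), an unnamed gene (0.938), Phlda1 (0.938), Hsd11b2 (0.937), Tmem178a (0.935) and Fanca (0.933). Tmem163, a zinc transporter of membranes, had a level of 178 in replicate 1 and 57.3 to 111 elsewhere, and Slc4a11, a solute carrier of the bicarbonate transporter family, 122 and 33.8 to 78.3. Without replicate 1 their r was 0.956 and 0.910, at ranks 4 and 17. Hsd11b2 is also in the principal cell list, and without replicate 1 it was at rank 132. These values describe 9 libraries in which 1 stands apart. No p is given for them since the 9 genes were chosen with results of these data known, a limit that the p-values above share.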

How the data were processed

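Kidney cortex of ZDF fa/fa rats was flash frozen and stranded mRNA libraries were sequenced, per the labels' protocols. The deposited table holds a signal that the authors obtained from reads per gene over a size factor for each library. FastQC 0.11.2, MultiQC 0.9, HTSeq 0.6.1p1, DESeq2 and the build Rnor_5.0 are named per the submitters' processing notes, while an aligner and a DESeq2 version are not given in the sources used. Low values were multiples of 1 read, and every value came out within 0.1 read of a whole number (100%), which gave back the reads. A row each for reads outside genes, in more than 1 gene and aligned to more than 1 place was left out of the tests. These made up on average 28.9%, 0.106% and 17.2% of counted reads.

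All 9 samples formed 1 group. The genes and gene lists were chosen with earlier results of these data known. Values were analysed as log2(level + 1) for 13647 genes with a mean of at least 10. Variances and slopes on z-scored variables were tested over all of these with limma 3.58.1 in R 4.3.3 with a robust trend, and slopes again with edgeR 4.0.16 (quasi-likelihood) on the recovered reads. Benjamini-Hochberg adjustment ran over all genes, with a threshold of 0.05. Correlations were tested by exact permutation (two-sided, 362880 pairings). Scripts were tested on simulated data. Lists held shared V-ATPase subunits (17 of 19 matched), other intercalated cell (24 of 28), principal cell (7 of 9), distal convoluted and connecting tubule (5 of 8), thick ascending limb (3 of 6), proximal tubule (8 of 9), medulla (3 of 5), podocyte (5 of 5), red blood cell (8 of 14) and macrophage (8 of 8) genes. The sum of the podocyte list ran from 9663 to 13569 and of the macrophage list from 6237 to 9457. Named genes were the 10 genes of the set, partners of the pump subunits, genes called in the variance test or the slope on Foxi1, the 2 most abundant genes of each list and those most like the set, of which not all are printed. Alas2, Rhag, Klf1, Hepacam2, Ncoa7, Slc4a8, Atp4a, Spink8, Upk1b and Prima1 were named after their values were seen. Slopes on single genes other than Foxi1, ratios between the exchangers, the channels and 2 pump subunits, and values without replicate 1 in the correlations and sums were added after the data were seen.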

Additional observations from a re-analysis of the deposited data

Results flagged for a closer look

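Of 20 sets of 9 values tested for a single library far from the rest, 7 had one. About 1 in 20 is the rate for normally distributed values, and the levels of genes were tested here without logs. The rate over all tested genes was not counted, and replicate 1 was the highest library for 14.2% of them. In all 7 the library was replicate 1. It lay above the other libraries in the level of Atp6v1b1 (7366), Slc4a1 (6670), Slc4a9 (3319) and Foxi1 (2049). It also lay above them in the log2 ratio of Atp6v1b1 to Atp6v1b2 (0.55) and in the principal cell score (2.52, in SDs of that score over the 9 libraries). It lay below them in the proximal tubule score (-2.40, likewise in SDs of the score). These sets share the same library and are not independent.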

How the results depend on the processing

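No paired analysis was possible because all samples belong to 1 group. The log2 ratio of Slc4a1 to Slc26a4 was planned and not run, since Slc26a4 is not analysed here. The number of the 9 genes called was 0 in the variance test and in the slopes on Foxi1, on the principal cell, proximal tubule and red blood cell scores and on library size, and it was 0 under each of their alternatives (other pseudocounts, TMM scaling, the same total per library, other filters on low values, edgeR, an exact permutation test, library size as a second variable and each replicate left out). On the share of multiply aligned reads, 2 genes were called, and 1 with the same total per library, 1 without replicate 1 and 1 by the exact permutation test; with each replicate left out the count ran from 1 to 3, and the 3 genes called without replicate 5 were Rhcg, Foxi1 and Atp6v1b1. Over all 13647 genes that fit called 4774, with 4920 without replicate 1 and 1740 without replicate 5. It called 4301 of 13877 with the same total per library, and the exact permutation test called 3986 of 13647. Rhcg stayed called in every alternative (limma adjusted p 0.0122 to 0.0435). Rhbg was not called with library size as a second variable (slope 0.38, limma adjusted p = 0.0666), with the same total per library (slope 0.38, adjusted p = 0.0508), without replicate 1 (slope 0.36, adjusted p = 0.0505) or without replicate 5 (slope 0.43, adjusted p = 0.0506), and its adjusted p was 0.0149 at the lowest. The cause was not tested. Without replicate 5 the slope on Foxi1 called 7 of 13646 genes, none of them in the set. The median correlation of pairs ran from 0.26 without replicate 1 to 0.67 with another left out. Depth did not limit the levels, since the smallest read count was 333.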
